A study of Homo sapiens with 9 samples.

Results

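The baseline described here is the poly(A) RNA of HaCaT cells that carry an empty vector (Vector), taken as the 3 Vector libraries of a series of 9. HaCaT is a line of keratinocytes, the main cells of human epidermis, that became immortal in culture without an introduced gene. The other 6 libraries, used only for comparison, are 3 of HaCaT cells overexpressing wild-type FTO (FTO) and 3 of HaCaT cells overexpressing an FTO mutant whose demethylase activity is disrupted (mut-FTO). The FTO enzyme demethylates N6-methyladenosine, a modified base of messenger RNA. All 3 groups carry an introduced construct, and the labels give no promoter, number of clones or separate cultures for any of them. P-values therefore measure the spread between these libraries, which may be technical. The members were taken by label, as the columns of the Vector samples, and every named gene of the table was ranked in them. The group was chosen with earlier results of these data known, and replicate 3 had been named as outlying beforehand.

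Keratinocytes hold their shape with keratins, intermediate filament proteins that assemble from a type I and a type II partner. Basal cells, which sit on the basement membrane and divide, make KRT5 with KRT14 and attach through laminin 332, collagen XVII and the integrin of hemidesmosomes. Cells that leave the basal layer switch to KRT1 and KRT10 and later build the cornified envelope from involucrin, loricrin and small proline-rich proteins. KRT6, KRT16 and KRT17 are made in wounded, inflamed and cultured epidermis, and KRT8 and KRT18 are typical of simple epithelia.

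The 3 Vector libraries held 33824317, 34005571 and 34999460 counts, and FTO stood at 18.4, 17.0 and 25.8 CPM in them against 49.7 to 82.7 CPM in the other 6. CPM is a gene's share of the library's counts, scaled to 1000000 and adjusted between libraries, so at a given number of transcripts it grows with transcript length. Levels of different genes are therefore ordered only as CPM per kilobase of the longest annotated transcript. Vector replicate 3 stood apart from replicates 1 and 2 before any gene is considered. Mitochondrially encoded genes took 14.97% of its counts against 4.16% and 4.20%, and assembled loci without a gene name took 2.50% against 0.770% and 0.773%. In the 6 other libraries these shares ran from 3.80% to 7.45% and from 0.689% to 3.17%. Wilson 95% intervals on the shares of counts given here reach at most 0.0149 points to either side and cover counting error only.

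Markers chosen for keratinocytes or for this baseline were present in all 3 libraries, and not all of them are particular to keratinocytes. CTSB, a lysosomal cysteine protease, stood at 16164, 15021 and 10960 CPM in replicates 1, 2 and 3, the most counts of any nuclear gene. KRT15, a type I keratin of basal cells, stood at 886, 957 and 656 CPM. IL1B, a cytokine of early inflammation, stood at 400, 381 and 446 CPM, and TP63, the master transcription factor of stratified epithelia, at 302, 343 and 522 CPM. Of these, TP63 and IL1B were highest in replicate 3, and CTSB and KRT15 were lowest there. The basal markers COL17A1 (1092, 1249 and 893 CPM), ITGB4 (1216, 1438 and 1373 CPM) and ITGA6 (836, 1019 and 1369 CPM) were present in all 3 libraries. SFN, which encodes the epithelial 14-3-3 sigma protein, stood at 2523, 2336 and 2451 CPM, alike in the 3 libraries.

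Markers of other skin cells were at or near 0, apart from genes that epithelial cells also make. Of 17 leukocyte markers, 11 had no count in the 3 libraries, among them PTPRC, CD3D and CD207, and the list took 0.00548% to 0.00812% of the counts. Nearly all of that was CD68, a lysosomal protein that stood at 61.8 ± 14.9 CPM (SD, n = 3). Of 10 fibroblast markers, COL1A2 and THY1 had no count, and COL1A1 led at 7.93 ± 0.687 CPM, with the list at 0.00128% to 0.00142%. Of 8 melanocyte markers, TYR, DCT, SOX10 and KIT had no count and none reached 1 CPM, with the list at 0.0000946% to 0.000151%. Of 8 endothelial markers, PECAM1, CLDN5 and EMCN had no count and CDH5 led at 1.11 ± 0.402 CPM, with the list at 0.000111% to 0.000209%. Of 10 Merkel cell and gland markers, CHGA, ATOH1, AQP5 and SCGB2A2 had no count, while KRT7, KRT8, KRT18 and MUC1, which cultured epithelial cells also make, gave nearly all of the list's 0.203% to 0.383%. VIM, the intermediate filament of mesenchymal cells and of many cultured lines, was singled out after its values were seen. It stood at 0.292, 0.671 and 0.254 CPM.

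A few genes filled much of each Vector library. Of 19729 named genes, 11554 reached a mean of 1 CPM, 8198 reached 10 CPM, 1761 reached 100 CPM and 105 reached 1000 CPM. The other classes were 3324 genes above 0 and under 1 CPM, and 4851 without a count. With 102829348 counts over the 3 libraries, no count allows a level of up to 0.0292 CPM, a limit of 3 counts over the group. The 10 nuclear genes with the most counts took 8.78%, 8.47% and 6.69% of the counts, and the 100 leading nuclear genes took 26.8%, 25.7% and 21.1%. Replicate 3 had the smallest share in both cases, below the 25.5% to 27.6% that the leading 100 took in the 6 other libraries. With mitochondrial genes and assembled loci left out of the totals, the leading 10 took 9.23%, 8.92% and 8.10%. The leading 100 then took 28.2%, 27.1% and 25.6%, so that replicate 3 was still lowest but by less.

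Per kilobase of the longest transcript, the leading nuclear genes had roles in inflammation, iron and metal storage, glycolysis, the cytoskeleton and proteolysis. S100A9, a calcium-binding alarmin of inflamed epidermis, led at 8783 ± 2511 CPM per kilobase (SD, n = 3). FTH1, the heavy chain of the iron store ferritin, followed at 7818 ± 393, and the metallothionein MT2A, a metal-binding protein, at 4208 ± 1913 CPM per kilobase. S100A9 and FTH1 did not differ beyond their spread. The glycolytic enzyme GAPDH (3805 ± 472), the cytoskeletal ACTB (3726 ± 272) and CTSB (3625 ± 706) came next and did not differ beyond their spread. KRT14 (2941 ± 514), KRT6A (2923 ± 419), S100A11 (2784 ± 1030) and PKM (2655 ± 147) also lay within each other's spread, in CPM per kilobase. The 13 mitochondrially encoded genes were left out of this order. It depends on the transcript length taken. The longest transcripts of cytosolic ribosomal protein genes had a median of 1841.5 bases. Among 31 lists, theirs kept its order least with the median length (Spearman's rho 0.776), so the place of these genes is uncertain.

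The keratin family took 2.99%, 2.92% and 1.99% of the counts of replicates 1, 2 and 3, against 2.75% to 3.51% in the 6 other libraries. With mitochondrial genes and assembled loci left out of the totals, the family took 3.15%, 3.08% and 2.41% in replicates 1, 2 and 3. Of 54 keratin genes, 20 reached 1 CPM: 15 of 24 basal and stratified keratins, 4 of 5 simple epithelial keratins and 1 of 25 keratins of hair and its root sheath. KRT14 stood at 5503, 5246 and 3913 CPM, and its type II partner KRT5 at 3651, 3437 and 2509 CPM. KRT6A stood at 7443, 7167 and 5644 CPM and KRT17 at 4433, 4002 and 2514 CPM. Replicates 1 and 2 lay close together for all 4 genes, and replicate 3 lay below both. Per kilobase, KRT14 and KRT6A led, followed by KRT19 (2085 ± 410), KRT17 (1990 ± 549) and KRT5 (1264 ± 240 CPM per kilobase), of which KRT19 and KRT17 did not differ beyond their spread.

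**Figure D1:**
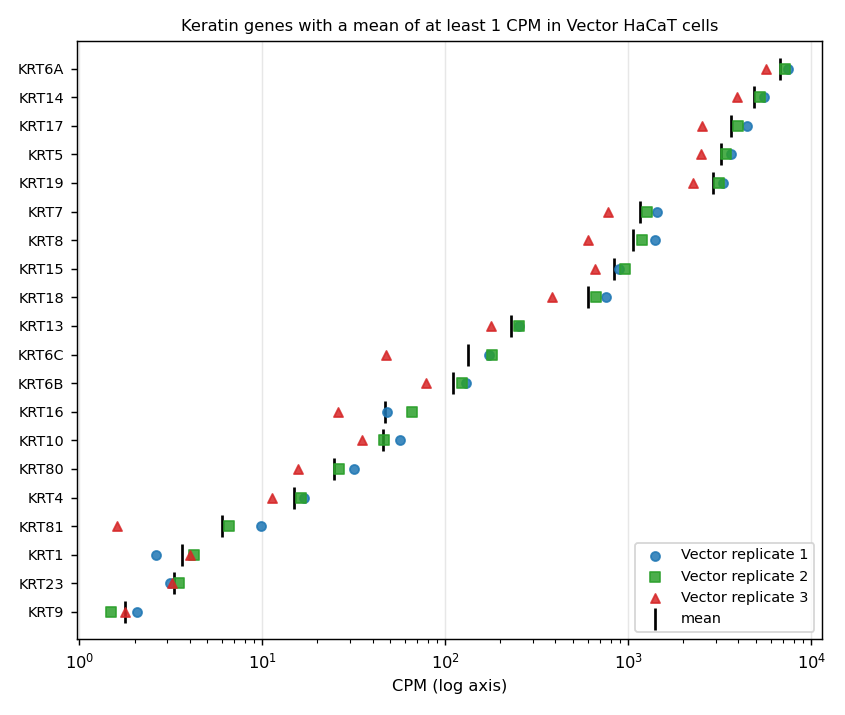
The 20 keratin genes that reached 1 CPM on average in Vector HaCaT cells, in CPM on a log axis, with 1 symbol per library and a bar at the mean. Replicate 3 is the lowest library for KRT6A, KRT14, KRT17, KRT5 and KRT19, and the libraries spread most for KRT6C and KRT81.

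Simple epithelial keratins were abundant, whereas the keratins of spinous cells were scarce. KRT19 stood at 3307, 3142 and 2247 CPM, KRT8 at 1407, 1184 and 599 CPM and its partner KRT18 at 757, 663 and 384 CPM. KRT10, the type I keratin of the spinous layer, stood at 56.2, 45.9 and 34.8 CPM, and its partner KRT1 at 2.63, 4.22 and 4.03 CPM. Per kilobase KRT1 was at 1.48 CPM. KRT16, the usual partner of KRT6, stood at 48.0, 66.1 and 26.0 CPM, or 28.4 CPM per kilobase against 2923 for KRT6A. KRT2, of the upper epidermis, had a count in 1 library only (0.140 CPM in replicate 2). KRT12, of the cornea, and 17 of the 25 hair and root sheath keratins had no count. KRT81 was the 1 hair keratin above 1 CPM, at 9.88, 6.57 and 1.61 CPM. In bulk RNA, fewer cells of a differentiated kind and less RNA per cell cannot be told apart.

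KRT6A was counted far above its neighbours KRT6B and KRT6C, which are nearly the same in sequence. KRT6B stood at 129, 123 and 78.4 CPM and KRT6C at 173, 179 and 47.7 CPM, so that replicate 3 lay below both others for each. The 3 genes lie side by side on the minus strand of chromosome 12 (GRCh38; KRT6A 52487174 to 52493257, KRT6C 52468516 to 52473785, KRT6B 52446651 to 52452126). Their coding sequences, each of 1695 bases in GENCODE release 29, are 97.5% (KRT6A and KRT6B), 97.9% (KRT6A and KRT6C) and 98.5% (KRT6B and KRT6C) identical. Of the 50-base windows of KRT6A, 38.1% occur unchanged in KRT6B and 47.3% in KRT6C, so that a read of that length cannot always be assigned. The split between these genes is uncertain, since the authors' way of counting such reads is not known. Coding bases 663 to 722 are shown because the genes differ at several places within them, with capitals at the 9 positions where the 3 genes are not all the same.
KRT6A: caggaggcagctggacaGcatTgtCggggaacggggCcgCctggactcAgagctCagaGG
KRT6B: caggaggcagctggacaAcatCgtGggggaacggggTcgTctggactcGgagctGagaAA
KRT6C: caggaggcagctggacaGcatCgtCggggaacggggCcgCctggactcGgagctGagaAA

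Calcium-binding S100 genes were abundant, and the genes of the cornified envelope were mostly scarce. S100A9 stood at 6161, 5619 and 3424 CPM and its partner S100A8, with which it forms calprotectin, at 1028, 908 and 880 CPM, so that S100A8 varied far less. Per kilobase S100A8 was at 1311 CPM and S100A9 at 8783. Of 18 S100 genes, 15 reached 1 CPM and S100B, of nerve and pigment cells, had no count. S100A7, psoriasin, stood at 270, 263 and 797 CPM, with replicate 3 above both others. Of 43 cornified envelope genes, 17 reached 1 CPM, 2 reached 100 CPM and 10 had no count. The most counts were those of PPL, an envelope linker (123, 166 and 157 CPM), and TGM1, a transglutaminase that crosslinks the envelope (112, 153 and 99.2 CPM). Per kilobase SPRR1B (54.4 ± 34.0), TGM1 (43.8 ± 10.1) and PPL (23.8 ± 3.6 CPM per kilobase) came in that order, of which SPRR1B and TGM1 did not differ beyond their spread. IVL, involucrin, stood at 1.96, 2.04 and 3.10 CPM, FLG, filaggrin, at 0.438, 0.419 and 0.536 CPM, and LOR, loricrin, had 2 counts in replicate 3 and none in the others. FLG2, RPTN and 5 of the late cornified envelope (LCE) genes named by the rule had no count.

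Cathepsins and protease inhibitors held most of the counts of this family. The 98 genes of proteases and their inhibitors took 3.52%, 3.64% and 3.51% of the counts. The 16 cathepsin genes, with legumain, took 2.05%, 1.99% and 1.39% and the 28 inhibitors 0.945%, 1.05% and 1.66%, so that the inhibitors held the larger share in replicate 3 only. CTSD, the aspartic protease of lysosomes, stood at 2548, 2434 and 1461 CPM. Per kilobase CTSB (3625 ± 706) exceeded CTSD (1012 ± 282) and CTSH (158 ± 46), while CTSL stood at 114 CPM per kilobase. CTSG and CTSW, proteases of neutrophils and lymphocytes, had no count. Among the serine proteases, ST14 (matriptase, 467, 446 and 320 CPM), FURIN (447, 462 and 294 CPM) and PLAU (urokinase, 312, 355 and 228 CPM) were all lowest in replicate 3. KLK10 stood at 220, 220 and 213 CPM and KLK5, which starts the shedding of corneocytes, at 83.1, 68.9 and 45.9 CPM. KLK7, which works with KLK5 in that shedding, stood at 4.67, 3.66 and 5.53 CPM, and KLK2, KLK3, KLK4, KLK12 and KLK15 had no count. MMP14, a membrane-bound collagenase, stood at 858, 922 and 679 CPM and MMP1, a secreted collagenase, at 352, 448 and 577 CPM. In CPM per kilobase MMP1 (233 ± 57) and MMP14 (220 ± 34) did not differ beyond their spread.

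The serpins of squamous cells differed most between libraries among the abundant inhibitors. SERPINB4 stood at 2289, 2688 and 6783 CPM and its near-identical neighbour SERPINB3 at 1324, 1587 and 3993 CPM. Replicate 3 was above both others by 2.73-fold for SERPINB4 and 2.74-fold for SERPINB3, as ratios to the mean of replicates 1 and 2. How reads were split between these near copies is not known. SERPINB1 (696, 832 and 623 CPM) and SPINT1 (551, 565 and 436 CPM) were alike in the 3 libraries, by which is meant that the highest library was at most 1.5 times the lowest. SPINK6 and SPINK7 had no count.

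**Figure D2:**
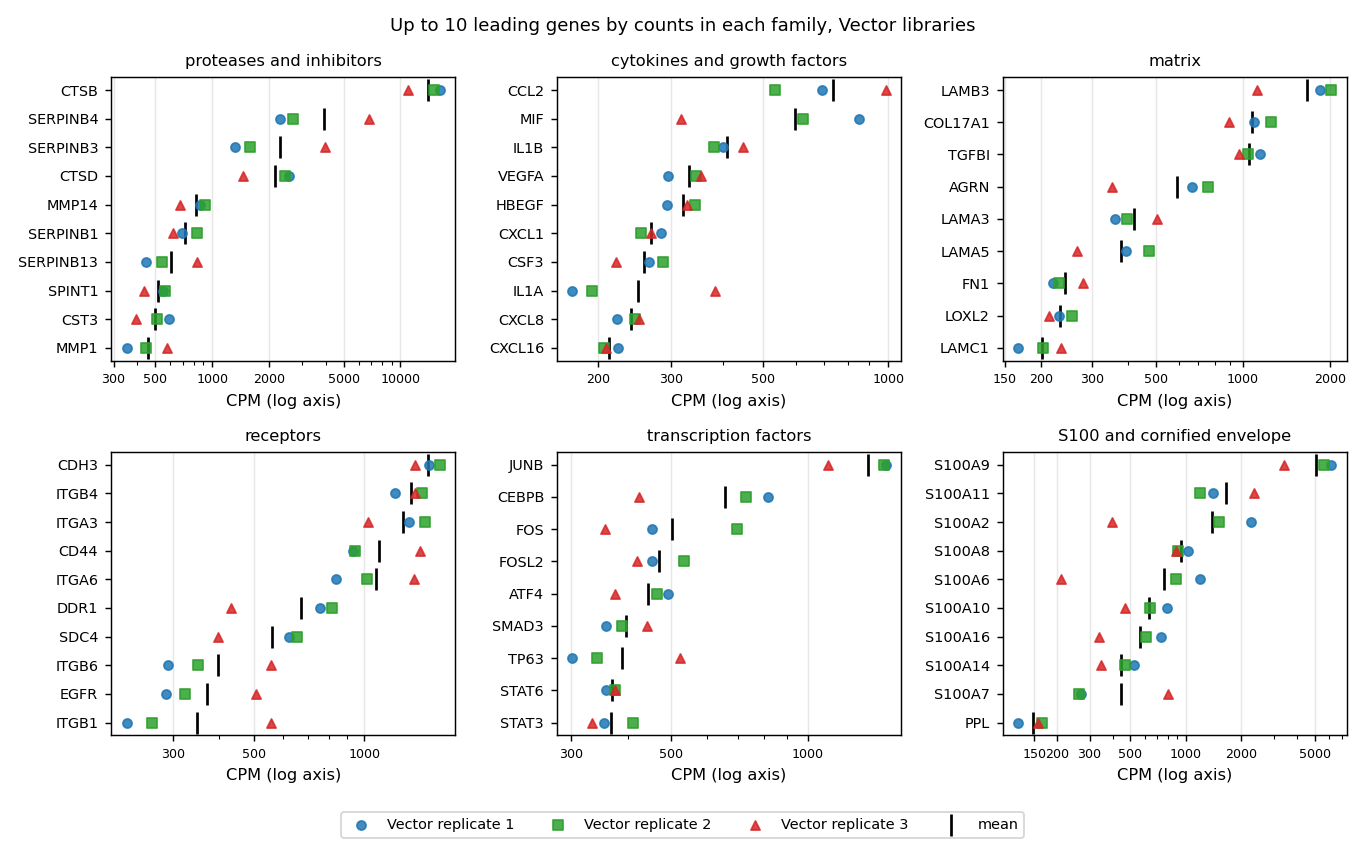
Up to 10 leading genes by counts in each of 6 families in the Vector libraries, in CPM on log axes, with 1 symbol per library and a bar at the mean. The 3 libraries nearly coincide for STAT6 and S100A8, and replicate 3 lies apart for SERPINB4, S100A2, S100A6 and ITGB1.

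Cytokine genes were read out at a low level as a family but included strongly counted alarmins and chemokines. The 126 cytokine and growth factor genes took 0.558%, 0.551% and 0.583% of the counts. Of 11 genes of the interleukin 1 family, 7 reached 1 CPM. IL1A, an alarmin stored in keratinocytes, stood at 174, 194 and 384 CPM, highest in replicate 3, and IL1RN, the receptor antagonist, at 103, 121 and 141 CPM. IL18 stood at 56.9, 51.8 and 87.5 CPM, and IL36G at 35.8, 45.2 and 33.8 CPM. IL36A had no count. Per kilobase, IL1B (251 ± 21) exceeded IL1A (118 ± 55), and IL1RN stood at 63.4 ± 9.9 CPM per kilobase.

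Among chemokines, the monocyte attractant CCL2 had the most counts, at 693, 535 and 986 CPM, and the neutrophil attractants CXCL1 (284, 254 and 268 CPM) and CXCL8 (222, 246 and 252 CPM) were alike in the 3 libraries. Of 32 chemokine genes, 13 reached 1 CPM and 7 had no count, among them CCL27, an attractant of T cells to skin, CCL19 and CXCL12. Of 45 other interleukins, interferons and genes of the tumour necrosis factor (TNF) family, 17 reached 1 CPM and 18 had no count, with IL4, IL13, IL17A and IFNB1 among the latter. MIF, a cytokine made by many cells, stood at 853, 626 and 317 CPM, and CSF3, a growth factor of neutrophils, at 266, 287 and 221 CPM. TNFSF10, which encodes the death ligand TRAIL, stood at 106, 132 and 267 CPM, with replicate 3 apart. The growth factors with the most counts were VEGFA, which acts on vessels (296, 345 and 355 CPM), and HBEGF, a ligand of the EGF receptor (294, 342 and 328 CPM), both alike in the 3 libraries. EGF itself, HGF, IGF1, IGF2, FGF1 and FGF10 had no count.

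The 78 matrix genes took 0.941%, 1.05% and 0.794% of the counts, against 0.599% to 0.809% in the 6 other libraries. Laminins and other basement membrane genes took 0.527%, 0.604% and 0.427% of the counts. Among the laminin chains, LAMB3 stood at 1849, 2024 and 1117 CPM and LAMA3 at 360, 396 and 505 CPM. Per kilobase LAMB3 (386 ± 112) lay above LAMA3 (39.5 ± 7.1 CPM), a difference larger than their spread. COL17A1, the collagen of hemidesmosomes, led the collagens at 190 ± 31 CPM per kilobase, and COL7A1, of anchoring fibrils, stood at 15.1 ± 3.7. Of the fibrous matrix made by fibroblasts, COL1A2, COL6A3, POSTN and VCAN had no count. TGFBI, an integrin-binding matrix protein, stood at 1148, 1040 and 966 CPM. FN1, fibronectin, stood at 220, 230 and 278 CPM, or 26.5 ± 3.4 CPM per kilobase, and THBS1, thrombospondin 1, at 214, 205 and 176 CPM.

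Adhesion receptors led the receptor genes. The 192 receptor genes took 1.45%, 1.69% and 1.60% of the counts. CDH3, P-cadherin of basal cells, led per kilobase at 304 ± 24 CPM, followed by ITGA3 (232 ± 41), ITGB4 (227 ± 19) and SDC4 (213 ± 54 CPM per kilobase), of which the latter 3 did not differ beyond their spread. Their counts were 1503, 1609 and 1376 CPM for CDH3 and 1325, 1470 and 1026 CPM for ITGA3. ITGB1, the beta chain of most keratinocyte integrins, stood at 224, 262 and 557 CPM, with replicate 3 above both others. Among receptor tyrosine kinases, the collagen receptor DDR1 (161 ± 50 CPM per kilobase) led, and EGFR stood at 37.9 ± 12 CPM per kilobase, with 287, 324 and 505 CPM in the 3 libraries. KIT, FLT1, FLT4 and NTRK3 had no count. TNFRSF1A, the TNF receptor, stood at 264, 256 and 216 CPM, and IL4R stood at 238, 267 and 188 CPM. Among innate sensors, the most counts were those of TMEM173, which encodes STING (161, 155 and 95.5 CPM), and F2RL1, a protease-activated receptor (60.1, 66.0 and 59.1 CPM), while TLR7, TLR8 and TLR10 had no count. VDR, the vitamin D receptor, varied little between libraries, at 78.4, 79.2 and 79.1 CPM, and PGR, the progesterone receptor, had no count. Of the desmosomal cadherins, DSG3 of the lower epidermis stood at 205, 248 and 332 CPM, and DSG1 and DSC1 of the upper epidermis had no count.

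Among 164 transcription factor genes, JUNB and CEBPB were highest per kilobase. Of 39 EMT, ETS and other lineage factors, 13 reached 1 CPM, 14 lay below that and 12 had no count. JUNB, of the AP-1 family, stood at 1483, 1470 and 1108 CPM, or 744 ± 117 CPM per kilobase, against 336 ± 106 for CEBPB and 79.3 ± 24 for TP63. CEBPB, a factor of differentiation and inflammation, stood at 818, 731 and 424 CPM. FOS stood at 454, 696 and 357 CPM, highest in replicate 2. STAT6, a factor that acts below cytokine receptors, stood at 359, 375 and 375 CPM. KLF5 (142, 177 and 364 CPM), HIF1A (206, 263 and 608 CPM), SNAI2 (48.1, 52.4 and 125 CPM) and TFAP2A (39.6, 39.5 and 79.95 CPM) were above both other libraries in replicate 3. ZEB1, SPI1, GATA1, SOX10 and MYOD1, factors of mesenchyme, blood, pigment cells and muscle, had no count. Of 39 HOX genes, which record position along the body, 20 reached 1 CPM, led by HOXA9 (52.1, 51.4 and 83.2 CPM), HOXC10 and HOXA10, and HOXB13 had no count.

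The share of genes with the exact motif TATAAA before the start varied with the level of expression. The motif TATAAA was searched on the gene's own strand between 40 and 20 bases before the first start listed in RefSeq (GRCh38.p14), in the 15265 named genes that have such a promoter entry. It was found in 10 of 69 nuclear genes with at least 1000 CPM (14.5%), against 2.92% of those at 100 to 1000 CPM, 1.03% at 10 to 100 CPM and 2.07% at 1 to 10 CPM. It was found in 7.42% of the genes without a count and in 3.63% of all. The 10 abundant genes were S100A9, ANXA2, MT2A, PPIA, EEF2, RPLP0, P4HB, JUNB, CALR and ID1. Among the lists it was found for 17 of 36 cornified envelope genes, 11 of 21 hair and root sheath keratins, 5 of 17 S100 genes and 4 of 11 basal and stratified keratins. Most abundant keratins could not be searched: KRT14, KRT17 and KRT6A have no promoter entry. Of the 12 keratins at 100 CPM or more, 2 have an entry, and 0 of these hold the motif. A match is a description of letters, not a site in use. The 120 bases before the start of 3 genes of unlike level are shown, with the motif in capitals. It begins 29 bases before the start in S100A9 (5068 ± 1449 CPM; chr1:153357734-153357853, plus strand) and 31 bases before it in CXCL8 (240 ± 15.6 CPM; chr4:73740449-73740568, plus strand). KRT5 (3199 ± 607 CPM; chr12:52520395-52520514, minus strand) has no exact match in the window. It does hold gataaa there, a near match that the search did not count.
S100A9: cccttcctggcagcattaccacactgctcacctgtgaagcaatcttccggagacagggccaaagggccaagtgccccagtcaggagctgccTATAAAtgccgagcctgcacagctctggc
CXCL8: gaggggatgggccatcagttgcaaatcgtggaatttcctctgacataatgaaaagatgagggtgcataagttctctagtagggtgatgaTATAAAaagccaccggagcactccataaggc
KRT5: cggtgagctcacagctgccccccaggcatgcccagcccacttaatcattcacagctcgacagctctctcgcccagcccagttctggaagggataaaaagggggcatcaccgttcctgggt

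Replicates 1 and 2 were close to each other, and replicate 3 was farther from both. Over the 11554 genes that reached 1 CPM on average, Pearson's r of log2 CPM across genes was 0.983 between replicates 1 and 2, 0.924 between 1 and 3 and 0.942 between 2 and 3. Genes of 1 library are not independent replicates, so these values describe the libraries only. Pairs of libraries differed by more than 2-fold in 1.42%, 21.8% and 14.7% of the genes, in the same order. All 3 libraries were alike for 5058 genes, or 43.8%, against 89.8% of genes in FTO and 73.4% in mut-FTO. A library was taken as set apart for a gene where it was at least 2-fold above both or below both others, which lay within 1.5-fold of each other. Replicate 3 was set apart for 1364 genes (11.8%), 502 higher and 862 lower, replicate 1 for 77 and replicate 2 for 25. With mitochondrial genes and assembled loci left out of the totals, the split of replicate 3 turned to 881 higher and 577 lower. In the other 2 groups no library was set apart for more than 112 genes. Of the 502 higher genes, 469 also lay above all 8 other libraries, and of the 862 lower genes, 814 lay below all 8.

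**Figure D3:**
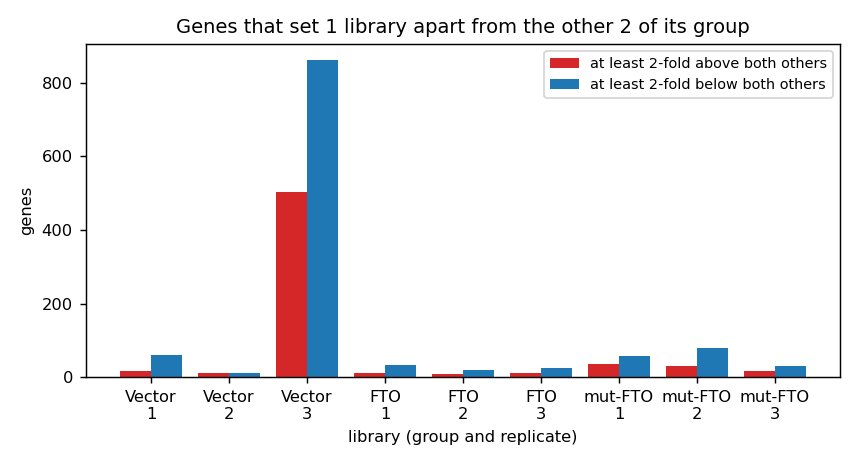
Number of genes for which each of the 9 libraries was at least 2-fold above both (red) or below both (blue) other libraries of its group, among genes whose group mean reached 1 CPM. Vector replicate 3 has 502 and 862 such genes, and no other library has more than 36 higher or 80 lower.

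The genes higher in replicate 3 included all 13 of the mitochondrially encoded genes, at 2.99-fold to 7.63-fold the mean of replicates 1 and 2. MT-CO1, a subunit of cytochrome c oxidase, stood at 11273, 11523 and 37988 CPM, and MT-ND4L, a small subunit of complex I, at 557, 602 and 4424 CPM. A gene listed only under a clone name had no count in replicates 1 and 2 and stood at 38.7 CPM in replicate 3. It also stood at 66.4 CPM in mut-FTO replicate 3 and 1.66 CPM in FTO replicate 3, with no count elsewhere in those groups. Among nuclear protein-coding genes taken by the rule, the peptidyl-prolyl isomerases PPIL4 (6.92, 7.86 and 29.4 CPM) and PPIG (7.89, 8.14 and 31.5 CPM) were highest by ratio, 3.98-fold and 3.94-fold. Of the genes lower there, with at least 10 CPM on average in replicates 1 and 2, the lowest by ratio was KCTD21, which encodes an adaptor of ubiquitin ligases, at 16.9, 16.05 and 1.78 CPM, or 9.27-fold below the mean of the others. TMEM160 (43.9, 31.8 and 4.26 CPM), TPGS1, of the tubulin polyglutamylase complex (48.7, 33.8 and 5.61 CPM), and NME3, a nucleoside diphosphate kinase (30.6, 26.0 and 3.95 CPM), followed. Among abundant genes, RPLP1 of the ribosomal stalk stood at 2294, 1685 and 322 CPM, S100A2 at 2243, 1516 and 396 CPM and S100A6 at 1200, 880 and 210 CPM. IFI27, an interferon-response gene, stood at 119, 87.0 and 17.0 CPM. These are ratios of 1 library to the mean of 2, with no test.

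Among families, ribosomal protein genes were mostly on the lower side. Of the 76 cytosolic ribosomal protein genes listed, 11 were set apart lower in replicate 3 and none higher. As a set they took 7.59%, 6.17% and 4.19% of the counts, against 8.11% to 9.61% in the 6 other libraries. RPL36A, a ribosomal protein gene outside this list, was set apart higher in replicate 3, at 165, 125 and 522 CPM. Over all 11554 genes at 1 CPM, replicate 3 was set apart higher for 502 and lower for 862. The family counts given here are set beside these as a description only. Of the 15 S100 genes at 1 CPM, 3 were lower and 1 higher. Of the 20 keratins at 1 CPM, 1 was lower, KRT6C, and none higher, although the median basal or stratified keratin stood at a log2 ratio of −0.50 to the mean of the other libraries. Of the 15 integrins at 1 CPM, 1 was higher and 2 lower, with a median log2 ratio of 0.56. Of the 17 cornified envelope genes at 1 CPM, 3 were higher, SPRR1B among them at 22.4, 20.8 and 58.0 CPM. No gene of the interleukin 1 family and no growth factor was set apart. Among the genes alike in all 3 libraries were ACTB (8704, 7661 and 8732 CPM), GAPDH (8069, 7028 and 6309 CPM), JUNB, TGFBI, CDH3 and ITGB4.

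The shift of replicate 3 ran with the base composition of the transcripts. The 11499 genes with an annotated length were divided into 5 equal groups by the GC content of their longest transcript. From the lowest to the highest GC group, the median log2 ratio of replicate 3 to the mean of replicates 1 and 2 was 0.65, 0.36, −0.01, −0.38 and −0.68. In the lowest group 289 genes (12.6%) were set apart higher and 3 (0.130%) lower, and in the highest 4 (0.174%) were higher and 557 (24.2%) lower. Genes set apart higher had a median GC content of 40.03% and a median length of 4654 bases, those set apart lower 60.4% and 2308 bases, and those alike 48.8% and 3765 bases. By length, the medians ran from −0.42 in the shortest to 0.39 in the longest group, in log2. Between replicates 1 and 2 the median log2 ratio ran only from −0.17 in the lowest to 0.08 in the highest GC group. The FTO libraries stayed within 0.13 of 0 in the lowest and highest GC groups. In these groups mut-FTO replicate 1 shifted by 0.39 and −0.21, replicate 2 by −0.31 and 0.15 and replicate 3 by −0.13 and 0.04. The part of GC content, of length and of the mitochondrial share in the differences of replicate 3 was not tested.

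**Figure D4:**
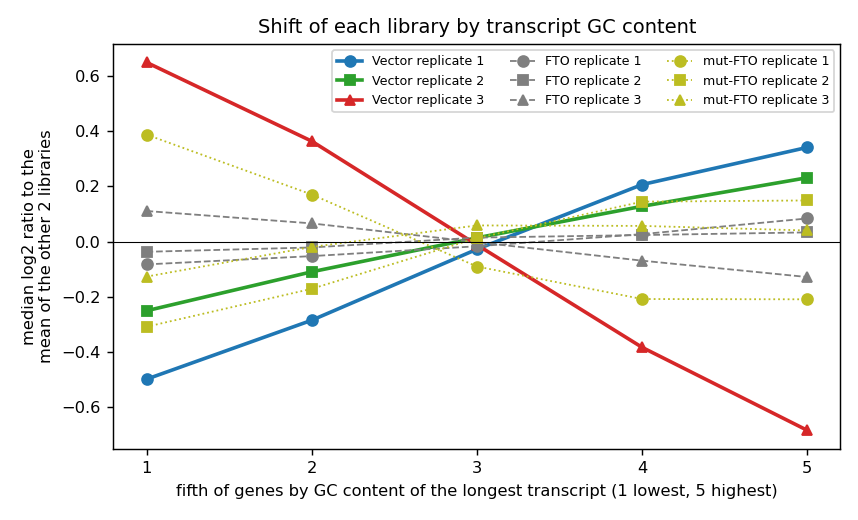
Median log2 ratio of each of the 9 libraries to the mean of the other 2 of its group, in 5 equal groups of genes by the GC content of the longest transcript. Vector replicate 3 falls from 0.65 to −0.68 across the groups, and the other Vector libraries run the opposite way, since each is compared with a mean that holds replicate 3.

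Coding stretches of 6 genes set apart in replicate 3 are shown for their base composition. The middle 90 coding bases (GENCODE release 29, GRCh38) are given with G and C in capitals. PPIL4 (chromosome 6, 149504733 to 149546038, minus strand) holds 35.6% G and C in its stretch and PPIG (chromosome 2, 169584340 to 169641406, plus strand) 42.2%. NSRP1 (chromosome 17, 30115521 to 30186475, plus strand) holds 48.9%, and all 3 were higher in replicate 3. KCTD21 (chromosome 11, 78171249 to 78188822, minus strand) holds 58.9%, TMEM160 (chromosome 19, 47045907 to 47048630, minus strand) holds 61.1% and TPGS1 (chromosome 19, 507497 to 519654, plus strand) 74.4%, and these 3 were lower in replicate 3.
PPIL4: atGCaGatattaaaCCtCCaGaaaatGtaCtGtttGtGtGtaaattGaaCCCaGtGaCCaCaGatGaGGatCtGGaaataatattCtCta
PPIG: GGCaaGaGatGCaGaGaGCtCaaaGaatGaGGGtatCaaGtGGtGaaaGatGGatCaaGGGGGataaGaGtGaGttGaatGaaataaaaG
NSRP1: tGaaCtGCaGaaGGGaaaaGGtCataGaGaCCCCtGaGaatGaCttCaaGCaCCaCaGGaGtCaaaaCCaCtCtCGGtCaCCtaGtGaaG
KCTD21: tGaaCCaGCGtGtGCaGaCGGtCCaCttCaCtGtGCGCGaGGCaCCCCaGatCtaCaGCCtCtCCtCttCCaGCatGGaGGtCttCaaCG
TMEM160: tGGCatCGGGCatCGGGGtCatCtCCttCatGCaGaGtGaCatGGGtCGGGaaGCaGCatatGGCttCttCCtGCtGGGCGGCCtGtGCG
TPGS1: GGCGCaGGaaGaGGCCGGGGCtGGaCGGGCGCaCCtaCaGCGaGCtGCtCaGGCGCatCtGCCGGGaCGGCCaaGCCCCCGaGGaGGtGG

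With each library centred within 20 groups of like GC content, an alternative added after the data were seen, 534 genes of the 11499 remained apart by count in replicate 3 (227 higher and 307 lower), and 323 of these were also apart as measured. Genes alike in all 3 libraries then numbered 7114. MT-CO1, PPIL4, PPIG, KCTD21, TMEM160, TPGS1, S100A2, S100A6, RPLP1 and IFI27 were still apart after centring. SERPINB3, SERPINB4, ITGB1, HIF1A, KLF5, SNAI2 and TNFSF10 were no longer apart, nor were ADAM15, COL18A1 and NR1H2, which as measured were lower in replicate 3.

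The Vector libraries were then set against the mean of FTO and mut-FTO, to show which features of the baseline differ from the rest of the series. Of 13713 genes tested by edgeR's quasi-likelihood test with Benjamini-Hochberg adjustment, 698 (5.09%) were called at an adjusted p below 0.05. They were 465 higher in Vector (3.39%) and 233 lower (1.70%). The FTO gene itself was lower in Vector, at a log2 difference of −1.73 (SE 0.20; adjusted p = 0.000323 by edgeR). Counts of calls depend on single libraries: with Vector replicate 3 left out they numbered 1438, with Vector replicate 2 left out 404, with 1 FTO library left out 418 to 450 and with mut-FTO replicate 3 left out 464. Of the 100 nuclear genes with the most counts, 3 were higher and 3 lower, near the share of all genes. Without Vector replicate 3, 19 were higher and 9 lower. That is 28 of 100, above the share of all genes in that fit (1438 of 13953 tested). The lists were chosen with earlier results of these data in view, so their counts are set beside the share of all genes as a description only. The median log2 difference over all genes tested was 0.01.

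Most cytokine and matrix genes that were called were higher in Vector, as were 465 of the 698 genes called in all. Of 75 cytokine and growth factor genes tested, 18 were higher and 6 lower, with a median log2 difference of 0.32. That is 32% called, against 5.09% of all genes tested. Between 17 and 36 were called when each library in turn was left out, the most without Vector replicate 3. IL1B stood at 400, 381 and 446 CPM against 44.1 to 242 CPM in the other 6 libraries, with no overlap (log2 2.02, SE 0.13; adjusted p = 2.92e-06 by edgeR). IL1A was higher at a log2 difference of 1.97 (SE 0.23; adjusted p = 0.00033 by edgeR), with 174, 194 and 384 CPM against 24.4 to 155. IL24, a relative of IL-10, stood at 50.3, 48.7 and 43.1 CPM against 2.75 to 21.6 CPM (log2 2.49; adjusted p = 4.52e-06 by edgeR). CCL2 (log2 1.25; adjusted p = 0.00146), HBEGF (0.76; 0.00485) and VEGFA (0.70; 0.00882, edgeR) were also higher. CXCL8 was lower (log2 −0.77; adjusted p = 0.0335 by edgeR), a call lost without Vector replicate 1 or 2 and without 5 of the 6 libraries of the other groups. Over the fits without 1 library its adjusted p by edgeR ran from 0.00497 to 0.11. Of 59 matrix genes tested, 18 were higher and 4 lower (37.3% called), with a median log2 difference of 0.43. When a library was left out, 14 (Vector replicate 2) to 27 (Vector replicate 3) were called. FN1 stood at 220, 230 and 278 CPM against 39.0 CPM or less in the other 6 (log2 3.99, SE 0.17; adjusted p = 1.27e-07 by edgeR). The laminin chain LAMA3 was higher (log2 1.04; adjusted p = 0.000601 by edgeR), whereas LAMB3 stood at a log2 difference of 0.04 (adjusted p = 0.93 by edgeR). COL4A2, a chain of collagen IV, was higher at a log2 difference of 0.61 (adjusted p = 0.0491 by edgeR), and this p ran from 0.000353 to 0.214 over the fits without 1 library. Of those fits, only the 1 without Vector replicate 3 kept the call. It was also lost with limma-voom (adjusted p = 0.0595) and with the replicate block (adjusted p = 0.0898 by edgeR).

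The keratins called, and most of the envelope genes called, were lower in Vector. Of 25 keratins tested, 5 were lower and none higher, with a median log2 difference of −0.41. That is 20% called, against 5.09% of all genes tested. Without Vector replicate 3, 5 were higher and 6 lower. KRT15 stood at 886, 957 and 656 CPM against 1027 to 2360 CPM (log2 −0.86, SE 0.17; adjusted p = 0.00884 by edgeR), and KRT1 at 2.63, 4.22 and 4.03 CPM against 20.9 to 94.8 CPM (log2 −3.63; adjusted p = 1.35e-06 by edgeR). KRT16 was lower at a log2 difference of −1.38 (adjusted p = 0.00702 by edgeR). KRT13, of mucosal epithelia, was named after its values were seen and stood at 252, 251 and 179 CPM against 454 to 949 CPM (log2 −1.50; adjusted p = 0.000211 by edgeR). KRT5, KRT14, KRT17 and KRT6A were not called, with log2 differences of −0.38, −0.57, −0.11 and −0.01. Of 46 S100 and cornified envelope genes tested, 11 were lower and 2 higher (28.3% called), all in the envelope list. Their median log2 difference was −0.45, and 9 to 15 were called when a library was left out. SPRR2E, a small proline-rich protein whose near copies make its counts uncertain, was lower (6.398, 5.76 and 8.71 CPM against 20.6 to 93.4; log2 −2.69; adjusted p = 5.21e-06 by edgeR). TGM2, a widely made transglutaminase, was higher at 83.2, 89.1 and 62.6 CPM against 11.5 to 36.8 (log2 1.78; adjusted p = 8.74e-05 by edgeR).

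Of 83 protease and inhibitor genes tested, 15 were higher and 5 lower, with a median log2 difference of 0.10. That is 24.1% called, against 5.09% of all genes tested. When a library was left out, 16 to 34 were called, the most without Vector replicate 3. PLAT, tissue plasminogen activator, was higher at 231, 346 and 228 CPM against 107 to 160 (log2 0.98; adjusted p = 0.00303 by edgeR). SPINK6, an inhibitor of kallikreins, had no count in Vector against 0.400 to 0.536 CPM in FTO and 6.53 to 7.70 CPM in mut-FTO, so that it was at least 15.9-fold and 237-fold lower than in these groups when Vector is set at 3 counts in total. CTSB was not called, at a log2 difference of −0.15 (adjusted p = 0.682 by edgeR), which became 0.02 without Vector replicate 3. Of 141 receptor genes tested, 9 were higher and 1 lower, and of 125 transcription factors 10 were higher and 6 lower. These are 7.09% and 12.8% called, the former near the share of all genes tested. The median log2 differences were 0.09 and 0.08. When a library was left out, the receptors called ranged from 4 (Vector replicate 2 or FTO replicate 1) to 19 (Vector replicate 3), with 17 for Vector replicate 1. The transcription factors ranged from 8 (FTO replicate 1 or 2) to 27 (Vector replicate 3). Fewer receptors (5 or 6) were also called without FTO replicate 2 or 3 or mut-FTO replicate 3, and fewer factors (9) without Vector replicate 2, FTO replicate 3 or mut-FTO replicate 2 or 3. TP63 (log2 0.46; adjusted p = 0.165 by edgeR) was not called. Of 76 ribosomal protein genes, 9 were lower (11.8% called). When a library was left out this count ran from 0 to 49, being 49 without Vector replicate 1 and 23 without Vector replicate 3. It was 0 without Vector replicate 2, any FTO library or mut-FTO replicate 3.

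Among genes called with no overlap of libraries and a mean of at least 10 CPM in Vector or over the other 6 libraries, the largest differences included interferon-response genes. Genes at lower levels, such as SPINK6, were not ranked here. IFI6 stood at 326, 215 and 101 CPM against 2.11 to 23.3 CPM (log2 4.88, SE 0.28; adjusted p = 1.35e-06 by edgeR), and IFI27 at 119, 87.0 and 17.0 against 2.48 to 7.01 CPM (log2 4.004; adjusted p = 0.000186). BST2, which tethers budding viruses, and SFRP1, a Wnt antagonist, were higher at log2 differences of 3.78 and 3.06 (adjusted p = 2.21e-05 and 1.2e-05 by edgeR). Apart from KRT1 and SPRR2E, the lowest were CCDC69 (log2 −2.74), C10orf99, which encodes a small secreted peptide of epithelia (−2.53), and the reductase AKR1B10 (−2.53). All 3 of these Vector levels lay below all 6 other libraries, at adjusted p-values of 6.11e-06, 5.21e-06 and 0.000301 by edgeR.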

How the data were processed

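The authors deposited 1 table of raw, whole-number counts for genes and assembled loci. HISAT2 and StringTie stand in the submitters' processing notes, without versions. How reads were counted, with which annotation and strand, is not given in the sources used here. A mouse build, mm10, is listed in those notes although the gene symbols and cells are human, so coordinates come only from the references named beside them. Columns were matched to groups by their letters, which is all that separates FTO from mut-FTO; 0 columns were left out.

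CPM used TMM factors (edgeR 4.0.16, R 4.3.3) from the 13713 genes kept by filterByExpr (minimum count 10, minimum total 15). Log ratios between libraries added 0.1 CPM. Lengths and GC content came from GENCODE release 29, matched by symbol for 19292 of 19729 named genes. All 9 libraries entered 1 robust quasi-likelihood fit with a term per group, checked on simulated counts. The simulated counts held no outlying library and no shift by GC content, so the check does not cover these features of Vector replicate 3. Alternatives were other scalings, DESeq2 1.42.0, limma-voom (limma 3.58.1), other filters, the replicate number as a block and each library left out.

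The group, the markers and the 35 gene lists (911 symbols, all matched, 5 of them by an older symbol) were chosen with earlier results of these data known. Genes are named by a rule: fixed markers, the 15 leading nuclear genes, the 2 to 5 leading members and up to 8 members without a count per list, the 10 highest and 10 lowest of replicate 3, and the 5 largest called differences per direction. Read-through names were left out and some genes the rule takes are not reported here. KRT13, VIM, KLK5, KLK7, KLK10, CTSL, KRT2, KRT6B, KRT6C, KRT10, S100A7, IVL, FLG, LOR, SPRR1B, IFNB1, CALR, EEF2, ID1, P4HB, RNASE2 and FAM3D fall outside it and were chosen after their values were seen. PCR copies cannot be told from separate molecules here, and intervals and limits cover counting error only.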

Additional observations from a re-analysis of the deposited data

How the results depend on the processing

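The number of genes at 1 CPM and the number of genes alike moved by less than 1.5 times under all alternatives run. Mean shares ran from 2.46% to 2.96% for keratins, 5.18% to 6.88% for ribosomal protein genes and 23.4% to 27.0% for the 100 leading genes. Leaving out 1 of 3 libraries cannot move a mean by 1 SD of the same 3, so these ranges are a description only. Genes set apart in Vector replicate 3 numbered 3938 at 1.5-fold in place of 2-fold, and 534 after centring by GC content, an alternative chosen after seeing the data. Leaving mitochondrial genes and assembled loci out of the totals raised the median log2 ratio of replicate 3 over all genes from −0.01 to 0.17. The number set apart was then 1458, of which 881 were higher, against 502 of 1364. With the median transcript length, 20 of 31 lists kept their leading gene per kilobase, KRT6A taking the place of KRT14.

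Genes called in Vector against the other groups numbered 1250 with DESeq2, and 404 to 1438 when 1 library was left out. With the replicate block they numbered 507, of which 500 were shared with the 698. Same-numbered libraries correlated at −0.127 to 0.106 in their deviations from group means, and differently numbered ones at −0.116 to 0.151. No pairing by number was seen, but with 3 libraries per group this cannot exclude shared batches. Of 624 alternatives for 39 named genes, 554 kept direction and call and 69 lost the call. CTSB ran from −0.26 (without Vector replicate 1) to 0.0206 (without Vector replicate 3), the 1 reversal. The causes of these changes were not tested.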

Other observations

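A few genes without a count in the 3 Vector libraries were counted in the other groups. RNASE2, a ribonuclease of eosinophil granules, stood at 9.43, 9.39 and 11.5 CPM in FTO and at 0.216 CPM or less in mut-FTO. FAM3D, a secreted cytokine-like protein, stood at 1.51, 1.05 and 2.34 CPM in mut-FTO and at 0.319, 0.268 and 0 CPM in FTO. Of 4851 named genes without a count in Vector, 848 had a count in another group and 5 reached a mean of 1 CPM in FTO or mut-FTO. Besides RNASE2, FAM3D and SPINK6, these were 2 genes with counts in a single library each.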
